A study of Mus musculus with 45 samples.

Results

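The genes described here build and run the cell cycle: 40 of the 24421 genes in the deposited expression table, taken by symbol from a list of cell cycle genes. Their roles are the loading of the replicative helicase (9 genes), DNA synthesis and nucleotide supply (6), entry into S phase (3), a proliferation marker and a topoisomerase (2), mitotic cyclins and kinases (7), the mitotic checkpoint (3), spindle and kinetochore (5), the D cyclins (3) and inhibitors of cyclin-dependent kinases (2). All 40 reached 1 CPM (a gene's reads divided by those of its library and put on a common scale) in at least 3 libraries and are among the 11380 genes tested.

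The study measured poly(A) RNA of mouse macrophages grown from C57BL/6 bone marrow for 7 days in medium conditioned by L929 cells, a source of the growth factor M-CSF. There were 7 groups of 3 libraries: untreated cells, cells given IL-4 (10 ng/ml) for 2 h or 4 h, cells given IFN-γ (100 ng/ml) for 2 h or 4 h, and cells given both cytokines at these doses for 2 h or 4 h. Each group holds the replicate numbers R1, R2 and R3. The labels do not say whether the numbers are animals or cultures, so p-values measure the spread between these libraries, which may be technical. The other 24 of the 45 samples concern short hairpin RNAs and were not used here.

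Macrophages that still see M-CSF can divide, and a culture at day 7 holds cells that have left the cycle beside cells that have not. In G1 phase the D cyclins pair with CDK4 or CDK6 and free the E2F factors from the RB family, and E2F then drives the genes for cyclin E, the MCM helicase and nucleotide synthesis. Cyclin A and B with CDK1, the polo and aurora kinases and the spindle checkpoint carry the cell through mitosis. The inhibitors p21 (Cdkn1a) and p27 (Cdkn1b) hold the cyclin-dependent kinases back. Both IFN-γ and IL-4 are known to slow the growth of macrophages that M-CSF drives.

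The libraries held 28920801 to 80028327 assigned reads. All 13 measured macrophage markers were above 1 CPM. The IFN-γ labels matched Irf1, which stood at 77.2 to 216 rescaled CPM in the 9 libraries without IFN-γ and at 1317 to 3721 in the 12 with it. Irf1 does not check the IL-4 labels. The 5 label genes Irf1, Cxcl9, Socs1, Irf4 and Retnla summed to 83.8 to 132 in untreated cells. Their sum was 261 to 369 after 2 h of IL-4 alone and 293 to 389 after 4 h. Levels are CPM divided by a library's median-ratio factor (rescaled CPM), because the precursor of ribosomal RNA, Rn45s, took 43.2% of the reads of untreated R2 and 15.7% of those of untreated R3, against 3.21% or less elsewhere. A log2 change is the difference of log2(rescaled CPM + 1), which understates the change of genes near or under 1 CPM. It is given with its standard error from limma, fitted to all 21 libraries with 1 term per group and 1 per R number, and adjusted p-values are limma's, corrected over all 11380 genes of a contrast by the Benjamini-Hochberg method.

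The untreated libraries R2 and R3 are not independent. For 0 of 24421 genes did untreated R3 hold fewer reads than untreated R2, while the next lowest such count among the 420 ordered pairs of libraries was 849 genes. Of the 1168 genes with exactly 1 read in untreated R2, 0 had no read in untreated R3 and 431 had none in untreated R1. With the reads of untreated R2 taken away, 51107526 reads were left in untreated R3, and the share of Rn45s in it fell from 15.7% to 0.122%. How the reads came to be shared is not recorded and was not tested. Each comparison with untreated cells was therefore fitted a second time with these reads taken out of untreated R3 (the subtracted fit). The words rose and fell are kept, against untreated cells, for genes with an adjusted p under 0.05 and one sign in the deposited and the subtracted fit. The 6 comparisons with untreated cells share the 3 untreated libraries. Log2 changes among treated cells compare treated groups only. Their standard errors and p-values use a spread estimated from all 21 libraries, the untreated ones included.

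The levels of these genes differed widely between the R numbers. Ccna2, which encodes cyclin A2 of S phase and mitosis, stood at 2.01 rescaled CPM in untreated R1, 84.6 in untreated R2 and 28.2 in untreated R3, or 12.4 in untreated R3 after subtraction. In the 18 treated libraries it ran from 1.96 to 3.08 in R1, from 50.004 to 106 in R2 and from 10.7 to 15.7 in R3, so that the R numbers did not overlap in any group. R2 was the highest of the 3 numbers in all 7 groups for 37 of the 40 genes, with untreated R3 taken after subtraction, and all 15 genes of mitosis kept the order R2, R3, R1 in all 7 groups. The median ratio of R2 to R1 was 24.1 over the mitotic cyclins and kinases, 21.2 over the checkpoint genes, 26.5 over the spindle and kinetochore genes, 4.90 over the genes of DNA synthesis and 3.22 over those of helicase loading. For the inhibitors it was 1.02. The exceptions to the R2 order were Ccnd3, Cdkn1a and Cdkn1b. The order was not counted over all tested genes, so these counts do not show how far it is particular to cell cycle genes. Over all tested genes, deviations from the group means correlated at 0.539 to 0.951 between libraries of the same number. Between libraries of different numbers they correlated at -0.859 to 0.369.

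Other markers moved with the R numbers. The summed level of the 13 macrophage markers ran from 20636 to 25339 rescaled CPM in R2, from 32778 to 42992 in R1 and from 32700 to 44071 in R3. The 5 markers of stem and progenitor cells summed to 7.15 to 15.03 in R2, against 4.29 to 9.91 in R1 and 5.20 to 8.61 in R3. The 5 granulocyte precursor markers summed to 9.16 to 18.0 in R2, to 6.98 to 9.58 in R1 and to 2.87 to 4.56 in R3. The 5 neutrophil markers summed to 62.7 to 120 in R3, against 142 to 247 in R2 and 174 to 367 in R1. The sums stayed at or below 17.5 for 6 stromal, 16.8 for 5 T cell, 14.9 for 5 B cell and 10.2 for 5 dendritic cell markers, 0.424 for 4 megakaryocyte and 0.124 for 9 erythroid markers, and the alpha and beta globin genes were at 0 in all libraries. The T cell sum ran from 0.212 to 0.958 without IFN-γ and from 2.696 to 16.8 with it, with 1 of the 5 genes, Lck, above 1 CPM. The part of these markers in the differences between R numbers or treatments was not tested, and fewer cycling cells cannot be told apart from less RNA per cycling cell in bulk RNA. All changes below are therefore taken within an R number.

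**Figure D1:**
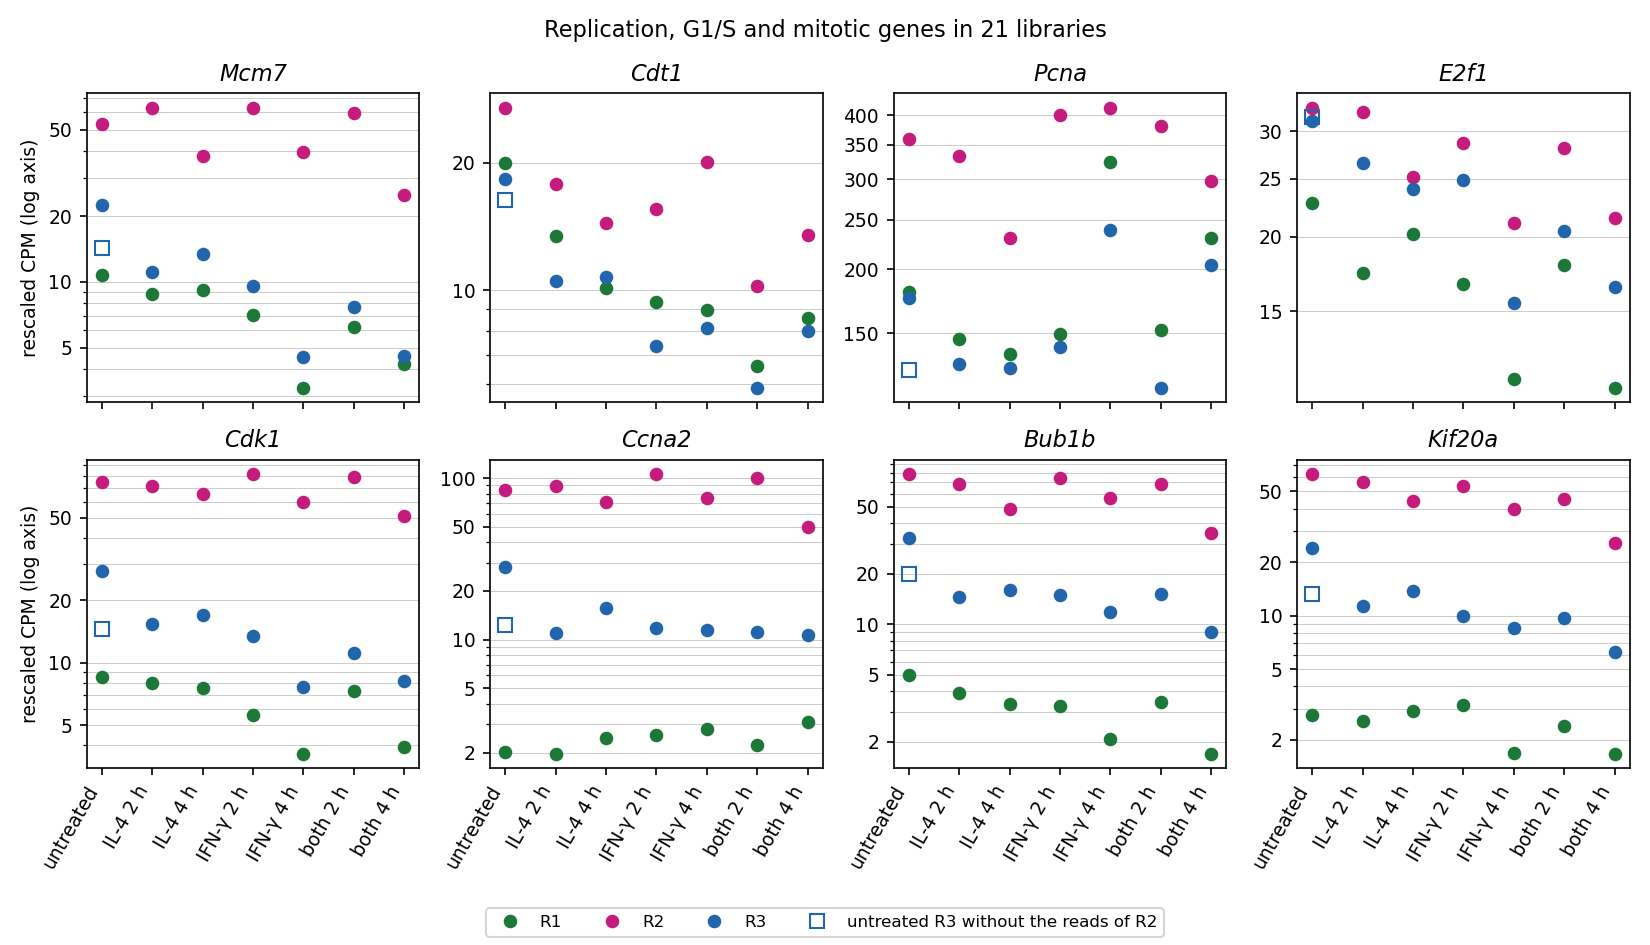
Rescaled CPM (log axis) of 8 genes in the 21 libraries, by group on the x axis. Each point is 1 library, coloured by R number, and the open square is untreated R3 after the reads of untreated R2 were taken out. Ccna2 lies between 50.004 and 106 in R2 and between 1.96 and 3.08 in R1 in every group, while Pcna is the one gene of the 8 whose points rise under IFN-γ at 4 h in all 3 R numbers.

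The promoters of some members are shown as a description. Whether their letters have a part in the differences between R numbers was not tested. The RefSeq promoter table (GRCm38.p6, from 250 bases before to 50 bases after each start) held 32 of the 40 genes, with 35 promoters, and 32851 promoters in all. A search of both strands took CCAAT, the binding letters of NF-Y, the CHR letters TTTGAA or TTCGAA, known from mitotic genes, and an E2F-like family of 4 words (TTTCGCGC, TTTGGCGC, TTTCCCGC and TTCCCGCC, of which the last pair can overlap each other). The 7 promoters below were picked because they hold matches, from genes of replication (Mcm6, Rrm1) and of chromosome separation and mitosis (Top2a, Cdk1, Cdc20, Kif11, Ccnb2). They run 5′ to 3′ on the gene's strand and show only bases before the start that no GENCODE vM21 exon covers. Capitals mark the matches, and ATTGG and TTCAAA are CCAAT and TTTGAA on the other strand.
Mcm6, chr1:128359706-128359805, minus strand: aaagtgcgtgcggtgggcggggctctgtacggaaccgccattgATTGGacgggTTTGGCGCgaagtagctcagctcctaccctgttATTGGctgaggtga
Rrm1, chr7:102441595-102441694, plus strand: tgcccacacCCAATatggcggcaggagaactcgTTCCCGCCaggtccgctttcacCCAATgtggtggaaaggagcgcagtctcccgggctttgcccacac
Top2a, chr11:99024190-99024289, minus strand: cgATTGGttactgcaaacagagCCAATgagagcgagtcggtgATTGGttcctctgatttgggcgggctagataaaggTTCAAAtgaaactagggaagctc
Cdk1, chr10:69352939-69353012, minus strand: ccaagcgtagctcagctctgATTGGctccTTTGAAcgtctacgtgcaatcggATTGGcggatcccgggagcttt
Cdc20, chr4:118437353-118437443, minus strand: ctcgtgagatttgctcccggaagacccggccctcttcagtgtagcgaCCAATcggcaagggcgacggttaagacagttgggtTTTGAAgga
Kif11, chr19:37376282-37376381, plus strand: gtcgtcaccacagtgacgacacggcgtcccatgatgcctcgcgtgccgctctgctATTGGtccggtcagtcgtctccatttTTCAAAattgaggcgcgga
Ccnb2, chr9:70421555-70421654, minus strand: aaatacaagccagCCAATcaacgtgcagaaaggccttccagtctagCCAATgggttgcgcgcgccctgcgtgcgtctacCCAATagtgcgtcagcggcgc

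The printed promoters of Mcm6 and Rrm1 hold an E2F-like word, those of Top2a, Cdk1, Cdc20 and Kif11 the CHR letters, and that of Ccnb2 only CCAAT. Over the whole window, the E2F-like family was in 28.6% of the 35 member promoters and in 3.49% of all promoters. By role, it was in 75.0% of the 8 promoters of helicase loading and 3 of 6 of DNA synthesis. It was in 1 of 5 of the mitotic cyclins and kinases. It was in 0 of 2 promoters of G1/S entry, 0 of 3 of the checkpoint and 0 of 4 of spindle and kinetochore. CCAAT was in 74.3% of the member promoters and 37.4% of all. CHR letters were in 37.1% against 19.2%, and in all 3 promoters of the checkpoint genes and 4 of 5 of the mitotic cyclins and kinases. They were in 2 of 4 of spindle and kinetochore, 2 of 8 of helicase loading, 0 of 6 of DNA synthesis and 0 of 2 of G1/S entry. The letters of a STAT6 site, TTC and GAA separated by 4 bases, were in 2.86% of the member promoters and 6.95% of all. None of these is a test of binding, and an absent word says only that the letters are not in the window.

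Most helicase loading genes fell at 4 h of IFN-γ and of both cytokines. The MCM proteins form the helicase that unwinds origins, CDC6 and CDT1 load it, and GINS2 belongs to the complex that starts it. Under both cytokines for 4 h, 8 of the 9 genes fell, and under IFN-γ alone for 4 h 7 of the 9. Without R3 in any group, the calls of Mcm3, Mcm4, Mcm5 and Gins2 under IFN-γ were lost, with Mcm2, Mcm7 and Cdt1 still called, and under both those of Mcm2 and Gins2 were lost. Over all 40 genes, 5 were called higher and 20 lower under IFN-γ at 4 h, 13 of the 20 in both fits. Of all tested genes, 32.5% were called higher and 30.8% lower in the deposited fit, and 31.5% and 29.5% in both. Under both cytokines at 4 h, 3 members were called higher and 27 lower, 22 of them in both fits. The shares over all tested genes were 33.4% higher and 33.4% lower, and 32.5% and 32.4% in both fits. The median log2 change of the 40 genes was -0.48 under IFN-γ and -0.70 under both cytokines at 4 h, and -0.23 and -0.41 in the subtracted fit. The median of all tested genes was 0.00 in each there, which the rescaling brings about. In deposited CPM without rescaling, the median of all tested genes was 0.10 under IFN-γ and 0.19 under both at 4 h. The 22 of 40 members that fell in both fits under both cytokines lie above the share of all genes, and the 13 of 40 under IFN-γ near it.

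Mcm7 showed the widest fall of the helicase subunits. It stood at 10.8, 52.9 and 22.6 rescaled CPM in untreated R1, R2 and R3 (14.3 in R3 after subtraction), at 3.27, 39.5 and 4.52 after 4 h of IFN-γ, and at 4.21, 25.0 and 4.60 after 4 h of both. Each treated library was below the untreated library of its number, although the groups overlapped because R2 was high throughout. The log2 change was -1.32 ± 0.25 under IFN-γ (adjusted p = 0.00022) and -1.43 ± 0.25 under both (adjusted p = 9.3e-05), and -1.11 ± 0.21 and -1.22 ± 0.21 in the subtracted fit. At 2 h it was not called under either single cytokine. Under both at 2 h it was called in the deposited fit only (-0.66 ± 0.25, adjusted p = 0.044, and 0.1 in the subtracted fit).

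Mcm2 stood at 14.0, 44.97 and 18.8 rescaled CPM in untreated R1, R2 and R3 (11.6 in R3 after subtraction). It stood at 22.4, 38.3 and 18.4 after 4 h of IL-4 and at 6.05, 30.5 and 6.87 after 4 h of IFN-γ. It fell by 0.99 on the log2 scale of the deposited fit under IFN-γ at 4 h (adjusted p = 0.00067). It was lower than under IL-4 by a log2 change of -1.12 ± 0.21 (adjusted p = 0.0002). IL-4 alone gave 0.13 ± 0.21 in the deposited fit. Under IL-4 at 4 h Mcm2 was higher than untreated in R1 and lower in R2. In R3 it was lower as deposited and higher after subtraction. Under both cytokines at 4 h, Mcm3 (-0.95 ± 0.17), Mcm4 (-0.84 ± 0.16) and Mcm5 (-1.07 ± 0.24) fell as well. Mcm6 was the helicase subunit with no call in any of the 6 comparisons with untreated cells, between -0.25 and 0.12. Its levels after 4 h of both were 45.5, 91.4 and 44.2 against 41.4, 113 and 57.4 in untreated cells (42.6 in R3 after subtraction).

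Cdt1 fell in all 6 treatments. It stood at 20.0, 27.1 and 18.3 rescaled CPM in untreated R1, R2 and R3 and at 6.59, 10.2 and 5.87 after 2 h of both cytokines, its lowest group. The groups did not overlap there. The log2 change was -0.62 ± 0.12 under IL-4, -0.99 ± 0.12 under IFN-γ and -1.43 ± 0.12 under both at 2 h (adjusted p = 0.00095, 4e-06 and 3.8e-08), and -0.83 ± 0.12, -0.86 ± 0.12 and -1.06 ± 0.12 at 4 h (adjusted p = 2.4e-05, 1e-05 and 7.4e-07). At 2 h the combination lay below IL-4 by -0.80 ± 0.12 (adjusted p = 5.6e-05) and below IFN-γ by -0.43 ± 0.12 (adjusted p = 0.029), and it was higher at 4 h than at 2 h of both by 0.37 ± 0.12 (adjusted p = 0.021). The call against IFN-γ was lost without R1 or R3 and without 5 of the 6 libraries taken singly, and the rise with time without R1, R3, the 2 h libraries R1 or R2 or the 4 h library R3. The 6 falls against untreated cells held with any 1 library or R number left out, and those under IL-4 were not called in deposited CPM without rescaling. Cdc6, present at 0.256 to 6.53 rescaled CPM over the libraries, fell at 4 h under IL-4 (-0.81 ± 0.22) and under both (-1.01 ± 0.22), and Gins2 fell in all 3 treatments at 4 h (-0.44, -0.46 and -0.53). The Cdc6 fall under IL-4 was lost without R3. The fall of Gins2 under IL-4 was lost without R1, R3, untreated R1, untreated R3 or the IL-4 library R2, that under IFN-γ without R1, R3 or untreated R3, and that under both without R3.

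Genes of DNA synthesis did not all move alike. Pcna, the sliding clamp of DNA polymerase, rose under IFN-γ at 4 h. There the ribonucleotide reductase subunits Rrm1 and Rrm2 were called lower in the deposited fit only. Under both cytokines at 4 h Rrm1 and Rrm2 fell. Pcna there stood at 230, 297 and 203 rescaled CPM in R1, R2 and R3, higher than untreated in R1 and R3 and lower in R2. Pcna stood at 180, 359 and 176 rescaled CPM in untreated R1, R2 and R3 (127 in R3 after subtraction) and at 324, 414 and 239 after 4 h of IFN-γ, higher in each R number, with a log2 change of 0.49 ± 0.18 (adjusted p = 0.024) and 0.65 ± 0.19 after subtraction (adjusted p = 0.0057). Against IL-4 at 4 h it was higher by 0.99 ± 0.18 (adjusted p = 0.00013), and these groups did not overlap, with 136, 230 and 128 under IL-4. The call against untreated cells was lost without R1, R3, untreated R1, untreated R2 or the IFN-γ libraries R1 or R3, and that against IL-4 held in each case.

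Rrm1 stood at 33.4, 144 and 63.6 rescaled CPM in untreated cells (41.6 in R3 after subtraction). After 4 h of both cytokines it stood at 22.7, 82.6 and 26.1, below in each R number (-0.86 ± 0.18 in the deposited fit, adjusted p = 0.0005). Rrm2 fell there too (-1.05 ± 0.27, adjusted p = 0.0026, -0.65 ± 0.18 after subtraction), but not without R3. Prim1, a primase subunit, fell under IFN-γ at 4 h (-0.54 ± 0.14, adjusted p = 0.0028), also not without R3. Pola1, the catalytic subunit of polymerase alpha, and Tyms, thymidylate synthase, were called in both fits under no treatment. Their log2 changes at 4 h of both cytokines were -0.44 ± 0.25 and -0.54 ± 0.21, the second called in the deposited fit only.

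At the gate to S phase, E2f1, the activator of replication genes, fell at 4 h in all 3 treatments and at 2 h wherever IFN-γ was given. It stood at 22.8, 32.9 and 31.2 rescaled CPM in untreated R1, R2 and R3, at 11.6, 21.04 and 15.5 after 4 h of IFN-γ and at 11.2, 21.5 and 16.5 after 4 h of both. Neither group overlapped with the untreated one. The log2 changes were -0.83 ± 0.10 and -0.81 ± 0.10 (adjusted p = 1.4e-06 and 1.6e-06), and -0.84 and -0.82 after subtraction. E2f1 was lower after 4 h of IFN-γ than after 4 h of IL-4 by -0.53 ± 0.10 (adjusted p = 0.00016). Its smaller falls were -0.30 ± 0.10 under IL-4 at 4 h, -0.31 ± 0.10 under IFN-γ at 2 h and -0.38 ± 0.10 under both at 2 h. The first was 0.16 in deposited CPM and was lost without R2, R3, untreated R1, untreated R3 or the IL-4 library R2, the next without R1, R3, untreated R1, untreated R3 or the IFN-γ libraries R1 or R2, and the last without R3.

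The cyclins E differed from each other. Ccne2 fell under both at 4 h (-1.11 ± 0.25, adjusted p = 0.00076). Its levels were 0.869, 6.05 and 1.85 rescaled CPM in untreated cells (0.662 in R3 after subtraction) and 0.283, 1.10 and 0.385 in treated ones. Ccne1 was called higher at 4 h in the subtracted fit alone (0.50, 0.45 and 0.59 under IL-4, IFN-γ and both, against 0.32, 0.27 and 0.41 in the deposited fit), and it was higher at 4 h than at 2 h of both cytokines by 0.51 ± 0.18 (adjusted p = 0.027), a call lost without R1, R3, the 2 h library R3 or the 4 h libraries R1 or R3.

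Mki67, the Ki-67 proliferation marker, and Top2a, the topoisomerase that untangles replicated DNA, were called in both fits under no treatment. Mki67 ran from 27.3 to 124 rescaled CPM in R1, where untreated cells held 30.99 and cells after 4 h of IL-4 124, while in R2 it ran from 233 to 528. Top2a ran from 9.06 to 14.7 in R1, from 191 to 411 in R2 and from 36.8 to 102 in R3. The 102 is untreated R3 as deposited, and it became 46.2 after subtraction. Top2a was called lower at 4 h of both in the deposited fit only (-0.65 ± 0.26, adjusted p = 0.035, and -0.27 after subtraction).

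Of the 7 mitotic cyclins and kinases, 3 fell under both cytokines at 4 h and 1 under IFN-γ at 4 h. Of all tested genes, 32.4% and 29.5% were lower in both fits. The count of 3 of 7 lies near that share and that of 1 of 7 below it, so neither is a result about this role. Ccnb1, cyclin B1, was called lower under both at 4 h in the deposited fit alone (-0.74 ± 0.26, adjusted p = 0.017, and 0.087 after subtraction). Cdk1, the mitotic kinase, stood at 8.50, 74.7 and 27.7 rescaled CPM in untreated R1, R2 and R3 (14.6 in R3 after subtraction), at 3.63, 59.6 and 7.62 after 4 h of IFN-γ and at 3.93, 51.3 and 8.21 after 4 h of both. All 6 treated libraries were below the untreated library of their number. The log2 changes were -1.03 ± 0.20 and -1.04 ± 0.20 (adjusted p = 0.00022 and 0.00018), and -0.73 ± 0.15 and -0.74 ± 0.15 after subtraction. IL-4 at 4 h gave -0.34 ± 0.20, and IFN-γ lay below it by -0.69 ± 0.20 (adjusted p = 0.0053, lost without R1).

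Under both at 4 h, Plk1, the polo kinase, fell by 0.66 ± 0.21 and Aurkb, the kinase of the chromosomal passenger complex, by 0.78 ± 0.20 on the log2 scale, neither of them without R3, and Plk1 also not without untreated R3 or the treated library R3. Aurka, the kinase of the spindle poles, was higher after 2 h of IFN-γ than after 2 h of IL-4 (0.60 ± 0.17, adjusted p = 0.0098), with 4.20, 38.0 and 7.57 against 2.26, 25.5 and 4.76 rescaled CPM, higher in each R number. Against untreated cells it was called in the subtracted fit only (0.58 ± 0.12, adjusted p = 0.00082, against 0.33 ± 0.17 and 0.15 in the deposited fit). Ccna2, Ccnb1 and Ccnb2 were called in both fits under no treatment. For Ccnb2, cyclin B2, the 6 changes lay between -0.33 and -0.05 in the deposited fit and between -0.09 and 0.20 in the subtracted one.

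Bub1b, which encodes the checkpoint kinase-like protein BubR1, fell in 5 of the 6 treatments, all but 2 h of IL-4. It stood at 4.99, 78.7 and 32.6 rescaled CPM in untreated R1, R2 and R3 (19.9 in R3 after subtraction), at 3.36, 48.4 and 16.1 after 4 h of IL-4, at 2.09, 56.2 and 11.9 after 4 h of IFN-γ and at 1.70, 34.9 and 9.05 after 4 h of both. Every treated library was below the untreated library of its number at 4 h. The log2 changes at 4 h were -0.71 ± 0.16, -0.94 ± 0.16 and -1.35 ± 0.16 (adjusted p = 0.0012, 5.4e-05 and 8.1e-07), and -0.48, -0.71 and -1.12 after subtraction, each held with any 1 library left out. The falls at 2 h of IFN-γ (-0.55 ± 0.16) and of both (-0.57 ± 0.16) were lost without R3 or untreated R3, and that of IFN-γ also without R1 or the IFN-γ library R3. Both cytokines at 4 h lay below IL-4 by -0.64 ± 0.16 (adjusted p = 0.0021) and were not called against IFN-γ (-0.41 ± 0.16, adjusted p = 0.053, and 0.013 after subtraction).

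Other checkpoint genes fell under both cytokines at 4 h: Bub1, the checkpoint kinase (-1.06 ± 0.26, adjusted p = 0.0016), and Cdc20, the activator of the anaphase-promoting complex (-0.64 ± 0.18, adjusted p = 0.0054, lost without R3). Of the 5 spindle and kinetochore genes, 3 fell there, among 32.4% of all tested genes lower in both fits. Kif20a, a kinesin of cytokinesis, stood at 2.77, 62.9 and 24.0 rescaled CPM in untreated cells (13.3 in R3 after subtraction) and at 1.67, 25.7 and 6.21 after 4 h of both, lower in each R number (-1.18 ± 0.18, adjusted p = 2.5e-05, and -0.91 ± 0.13 after subtraction). It fell under IFN-γ at 4 h as well (-0.84 ± 0.18, adjusted p = 0.00077). Cenpe, the kinetochore motor, fell under both at 4 h (-0.92 ± 0.20), and Cenpf, a kinetochore protein, fell by 1.07 ± 0.27, not without R3. Kif11, the motor that separates the spindle poles, and Birc5, survivin, were called in both fits under no treatment.

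Over the 15 mitotic genes, the change under both at 4 h was not of one size in the R numbers. The change within R2 was negative for 15 of 15 (median -0.54), that within R1 for 10 of 15 (median -0.26) and that within R3 after subtraction for 14 of 15 (median -0.49). Under IFN-γ at 4 h the mitotic genes went down in 10 of 15 cases in R1, 7 of 15 in R2 and 13 of 15 in R3 after subtraction, while the 15 replication genes went down in 13, 12 and 13. The share of all tested genes that went down within each R number was not counted. Without R3 in any group, 11 members were called under IFN-γ in place of 25 and 18 under both in place of 30, and without untreated R3 alone 16 under IFN-γ. Under IFN-γ at 4 h, 11 of the 25 calls held with each single library and each R number left out and in the subtracted fit (Mcm2, Mcm7, Cdt1, E2f1, Cdk1, Bub1b, Kif20a, Ccnd1, Ccnd2, Cdkn1a and Cdkn1b), and 17 of 30 under both. Without the term for the R number, 4 members were called in each.

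**Figure D2:**
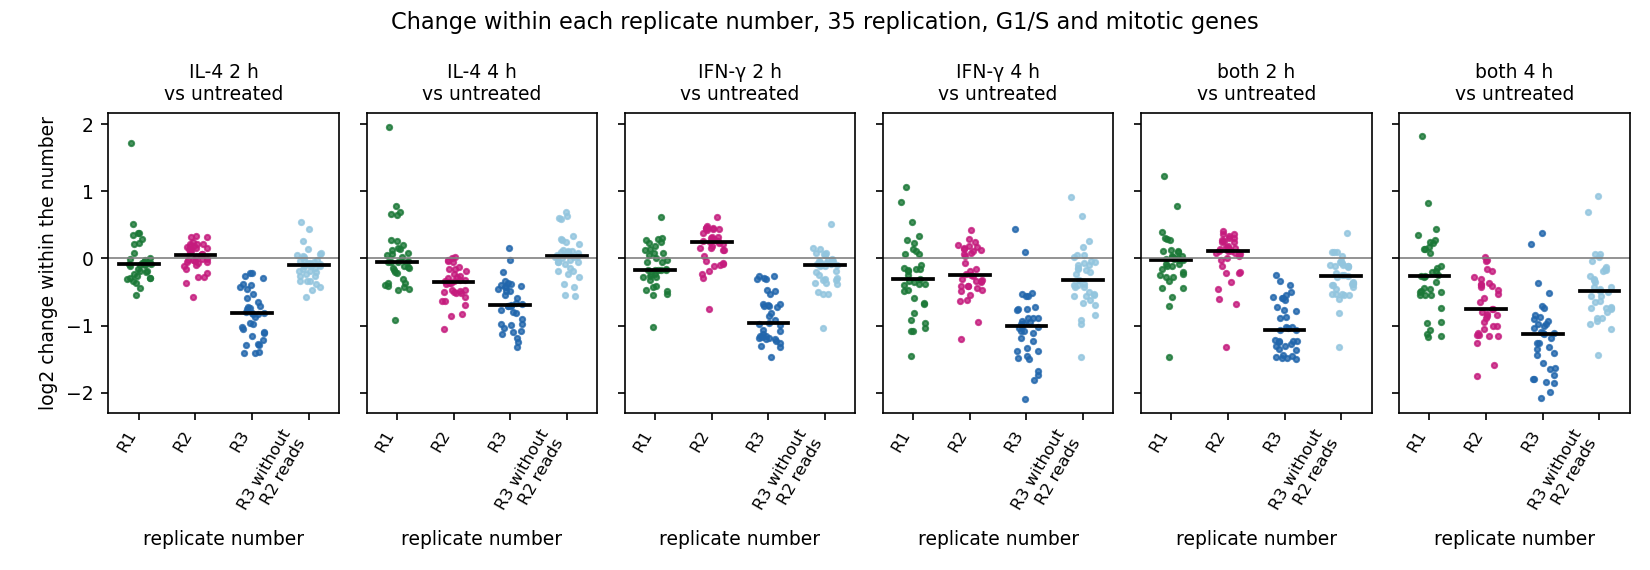
Log2 change against untreated cells within each R number (y axis) for the 35 genes other than D cyclins and inhibitors, 1 panel per treatment. Each point is a gene and the bar is the median. The 4th column takes the reads of untreated R2 out of untreated R3. Within R3 the median under both at 4 h moves from -1.13 to -0.49 with the subtraction, beside -0.26 in R1 and -0.75 in R2.

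Under IL-4 alone, the calls among the 40 genes were counted in the same way. At 2 h, 1 was called higher and 5 lower (1 and 2 in both fits), and at 4 h 1 higher and 12 lower (1 and 7 in both fits). Of all tested genes, 14% were called higher and 11.5% lower at 2 h, and 13% and 10.6% in both fits. At 4 h the shares were 23.9% and 23.6%, and 22.7% and 22.4% in both fits, so that the count of higher members lay below the share of all genes and that of lower members near it. The 7 that fell at 4 h were Cdc6, Cdt1, Gins2, E2f1, Bub1b, Cenpe (-0.74 ± 0.20) and Cdkn1b, and the call of Cenpe was lost without R3. At 2 h those that fell were Cdt1 and Cdkn1b, and the 6 calls became 11 without R2 and 2 without R3, untreated R3 or the IL-4 library R3. Left-out libraries took the count of 13 calls at 4 h to 6 without untreated R3, 7 without the IL-4 library R2, 20 without untreated R1 and 3 without R3 in every group.

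At 2 h of IFN-γ, 1 member was called higher and 5 lower, all in both fits, among 20.2% higher and 17.9% lower of all tested genes (18.9% and 16.9% in both fits). The 5 were Cdt1, E2f1, Bub1b, Ccnd1 and Cdkn1b. At 2 h of both cytokines, 1 was called higher and 12 lower, 7 of these in both fits, among 22.6% and 20.9% of all tested genes (21.5% and 19.7% in both fits). Those that fell in both fits at 2 h of both cytokines were Cdt1, E2f1, Bub1b, Kif20a, Ccnd1, Ccnd3 and Cdkn1b, and the call of Kif20a (-0.61) was lost without R3, untreated R3 or the treated library R3. The counts in both fits lay near or below the shares of all genes. The 6 calls at 2 h of IFN-γ became 17 without R2 in every group, 10 without untreated R1 and 11 without untreated R2. The 13 at 2 h of both became 21 without R2, 5 without R3, 7 without untreated R3 and 7 without the treated library R3.

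**Figure D3:**
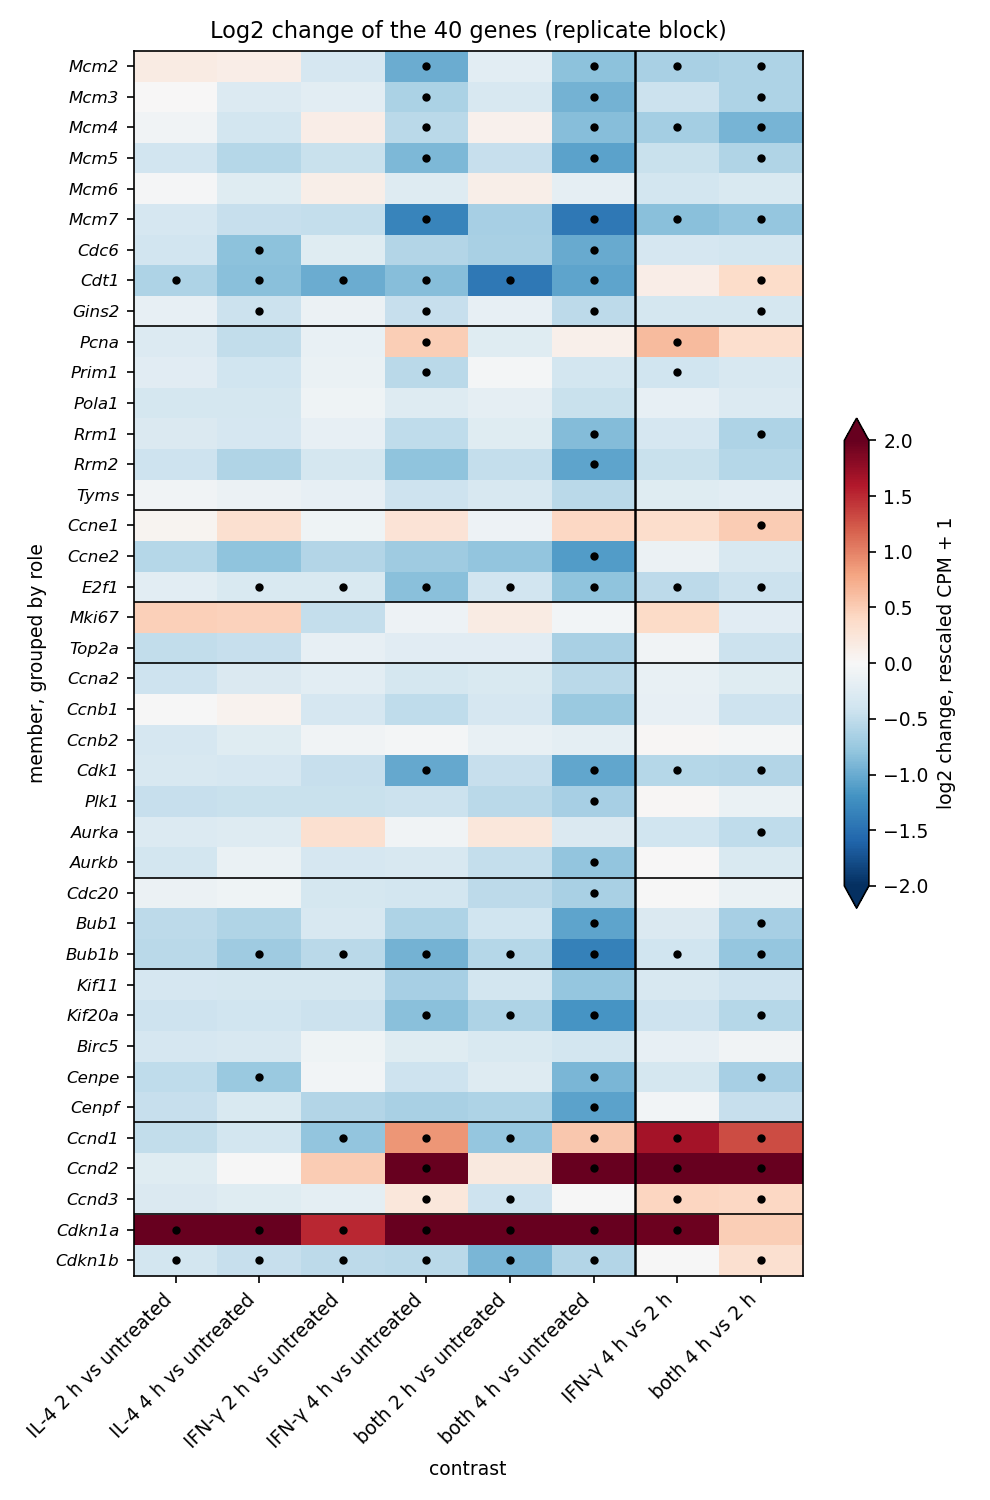
Log2 change of the 40 genes (y axis, by role) in 6 comparisons with untreated cells and 2 of 4 h with 2 h (x axis), on a colour scale that saturates at 2 in either direction. A dot marks a gene called in the same direction in the deposited and the subtracted fit. The column of both cytokines at 4 h holds 25 dots and that of IL-4 at 2 h holds 3.

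The D cyclins carry the growth signal into the cycle, and all 3 rose at 4 h of IFN-γ, Ccnd3 not in deposited CPM, while Ccnd1 alone of them was called at 2 h, lower. Ccnd1, cyclin D1, stood at 20.3, 72.2 and 27.4 rescaled CPM in untreated R1, R2 and R3 (14.9 in R3 after subtraction), at 13.2, 47.1 and 11.5 after 2 h of IFN-γ and at 43.9, 140 and 42.7 after 4 h. It fell at 2 h (-0.79 ± 0.14, adjusted p = 0.00028) and rose at 4 h (0.88 ± 0.14, adjusted p = 4.5e-05), in each R number and in both fits. Under both cytokines it fell to 14.4, 41.5 and 12.5 at 2 h (-0.77 ± 0.14) and rose to 37.1, 89.9 and 38.1 at 4 h (0.54 ± 0.14, adjusted p = 0.0034, not called without R1). Subtraction gave -0.51 and 1.16 under IFN-γ and -0.49 and 0.82 under both. IL-4 alone gave calls in the deposited fit only (-0.49 at 2 h and -0.36 at 4 h, against -0.21 and -0.08 after subtraction).

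Ccnd2, cyclin D2, had the largest rise of the members after Cdkn1a. It stood at 1.98, 10.1 and 3.77 rescaled CPM in untreated cells (2.02 in R3 after subtraction), at 4.15, 14.9 and 4.47 after 2 h of IFN-γ, and at 47.4, 57.6 and 38.4 after 4 h. After 4 h of both it stood at 30.9, 48.0 and 22.1, and after 4 h of IL-4 at 2.72, 11.1 and 2.42. The IFN-γ groups at 4 h did not overlap with any group without IFN-γ or with the 2 h groups. The log2 changes were 3.16 ± 0.26 under IFN-γ (adjusted p = 1.7e-08) and 2.61 ± 0.26 under both (adjusted p = 1.4e-07), and -0.01 ± 0.26 under IL-4. The ratio of R2 to R1 ran over the groups from 5.36 after 2 h of IL-4 to 1.21 after 4 h of IFN-γ.

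Ccnd3, cyclin D3, moved little. It fell at 2 h of both cytokines (-0.41 ± 0.09, adjusted p = 0.0019, lost without R3 and in deposited CPM) and rose at 4 h of IFN-γ (0.23 ± 0.09, adjusted p = 0.044), from 14.0, 24.4 and 20.1 to 17.3, 28.1 and 23.3 rescaled CPM. The rise was lost without R1, R3, untreated R1, untreated R3 or the IFN-γ libraries R2 or R3, and in deposited CPM, with TMM factors and in edgeR. Levels were also divided by the joined length of all annotated exons of a gene, 4709 bases for Ccnd1, 9409 for Ccnd2 and 8775 for Ccnd3. Per kilobase of this length, the median level in untreated cells was 5.81 CPM for Ccnd1, 2.29 for Ccnd3 and 0.401 for Ccnd2. After 4 h of IFN-γ it was 9.33 for Ccnd1, 5.04 for Ccnd2 (range 4.09 to 6.12) and 2.66 for Ccnd3 (range 1.97 to 3.20). The length of the transcripts present was not measured and can be shorter than the joined exons. The order of the D cyclins therefore depends on this length and is not taken as a result.

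The inhibitor genes went in opposite directions. Cdkn1a, the gene of p21, rose in all 6 treatments and Cdkn1b, that of p27, fell in all 6. Cdkn1a lies on chromosome 17 (29090976 to 29100727, GRCm38, GENCODE vM21) and Cdkn1b on chromosome 6 (134920401 to 134925513). In untreated R1, R2 and R3, Cdkn1a stood at 58.5, 72.5 and 61.2 rescaled CPM. It reached 311, 268 and 304 after 2 h of IL-4 and 317, 241 and 286 after 4 h. Under IFN-γ it reached 225, 153 and 176 at 2 h and 1146, 340 and 921 at 4 h, and under both cytokines 633, 395 and 534 at 2 h and 891, 654 and 649 at 4 h. No treated group overlapped with the untreated one, and R2 was the lowest of the treated libraries in 5 of 6 groups.

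The log2 changes of Cdkn1a at 2 h were 2.18 ± 0.24 under IL-4, 1.501 ± 0.24 under IFN-γ and 2.98 ± 0.24 under both (adjusted p = 2.8e-06, 8.6e-05 and 2.1e-08). At 4 h they were 2.12 ± 0.24, 3.46 ± 0.24 and 3.48 ± 0.24 (adjusted p = 1.7e-06, 2e-09 and 1.3e-09). All 6 held without the term for the R number and with any library left out. At 2 h the combination was above IL-4 by 0.80 ± 0.24 (adjusted p = 0.017, lost without R1, R3, the IL-4 library R1 or the treated libraries R1 or R3) and above IFN-γ by 1.48 ± 0.24 (adjusted p = 0.00039, lost without R3). At 4 h it was above IL-4 by 1.37 ± 0.24 (adjusted p = 0.00014) and differed from IFN-γ by 0.02 ± 0.24, which became -0.43 without R2 (adjusted p = 0.0088). R2 was 340 under IFN-γ and 654 under both, while R1 and R3 were lower under both than under IFN-γ.

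Cdkn1b stood at 33.5, 38.9 and 52.2 rescaled CPM in untreated R1, R2 and R3 and reached its lowest levels, 15.8, 20.8 and 29.1, after 2 h of both cytokines, where the groups did not overlap (-0.91 ± 0.12, adjusted p = 7.8e-06). The other log2 changes were -0.37 and -0.53 at 2 h of IL-4 and IFN-γ and -0.47, -0.54 and -0.59 at 4 h of IL-4, IFN-γ and both. Those at 4 h of IL-4 and 2 h of IFN-γ were lost without R3. That at 2 h of IL-4 was lost without R2, R3, any untreated library or the IL-4 libraries R2 or R3. In deposited CPM only the fall at 2 h of both was called.

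**Figure D4:**
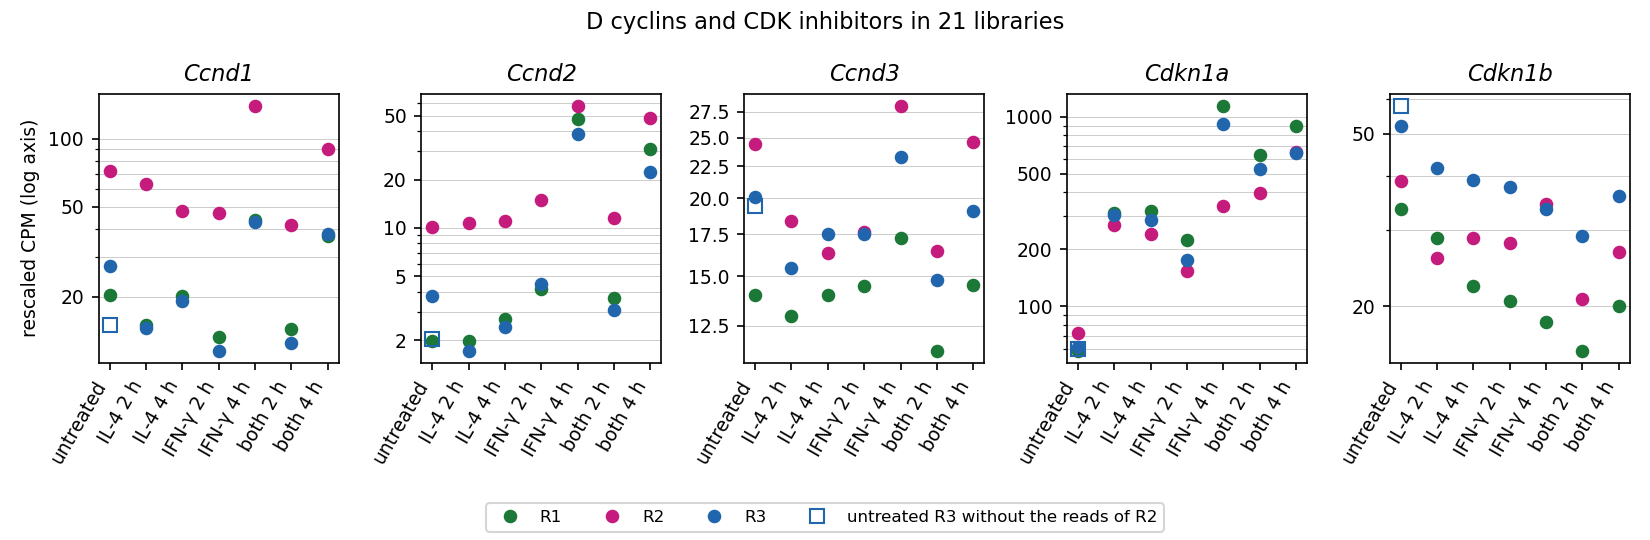
Rescaled CPM (log axis) of the D cyclins and the inhibitor genes in the 21 libraries, by group on the x axis, with colours and the open square as in the plot of replication and mitotic genes. Ccnd2 lies between 38.4 and 57.6 after 4 h of IFN-γ and between 1.98 and 10.1 in untreated cells, and Cdkn1a is above its untreated range of 58.5 to 72.5 in all 18 treated libraries.

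The treated groups were also compared with each other directly, with the spread still estimated from all 21 libraries. At 4 h, IFN-γ against IL-4 gave 5 members higher (Pcna, Ccnd1, Ccnd2, Ccnd3 and Cdkn1a) and 5 lower (Mcm2, Mcm7, E2f1, Cdk1 and Kif20a), among 31.4% and 31.9% of all tested genes. At 2 h it gave 2 higher (Aurka and Ccnd2) and 2 lower (Cdt1 and Cdkn1a), among 19.7% and 19.4%. Of the 10 at 4 h, Pcna, the D cyclins, Cdkn1a, Mcm2 and E2f1 held with any library or R number left out. Mcm7 was lost without R1 or R3, Cdk1 without R1, and Kif20a (-0.44) without R1, R2, R3, the IL-4 libraries R1 or R3 or the IFN-γ libraries R1 or R3. The 10 calls became 17 without R2, of the 4 at 2 h Aurka held with any library or R number left out, and the 4 at 2 h became 1 without R1, R3 or the IFN-γ library R3, 2 without the IL-4 libraries R1 or R3 and 7 without R2. Both cytokines against IL-4, which shares the IL-4 libraries with that comparison, gave 5 higher at 4 h (Pcna, the D cyclins and Cdkn1a) and 13 lower, among 25.9% and 30.1%, and at 2 h 2 higher (Aurka and Cdkn1a) and 2 lower (Cdt1 and Cdkn1b), among 16.3% and 17%. The 18 at 4 h became 10 without R1 or R3, and the 4 at 2 h became 1 without R1 or R3, 7 without R2 and 2 without the library R1 of either group. The 13 lower were Mcm2, Mcm3, Mcm4, Mcm7, Rrm1, E2f1, Ccnb1, Cdk1, Aurkb, Cdc20, Bub1b, Kif20a and Cenpf, of which Mcm2, Mcm3, E2f1, Bub1b and Kif20a held with any library or R number left out. Of the 5 higher, Ccnd1, Ccnd2 and Cdkn1a held likewise. Between both cytokines and IFN-γ alone few members were called. At 2 h Cdkn1a was higher and Cdt1 lower, among 5.87% and 4.5% of all tested genes, and at 4 h 0 members were called, among 13.8% and 18.8%. In that comparison 34 of the 35 replication, G1/S and mitotic genes were lower within R2 (median -0.57), 17 within R1 and 25 within R3, with the share of all tested genes not counted. By edgeR on the recovered reads 0 members were called there as well, 6 had an unadjusted p under 0.05 in limma, and Bub1b, Kif20a and Cenpe were called in the subtracted fit.

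Between 2 h and 4 h members were called in both directions. Under IFN-γ, 5 members were higher at 4 h (the D cyclins, Pcna and Cdkn1a) and 7 lower (Mcm2, Mcm4, Mcm7, Prim1, E2f1, Cdk1 and Bub1b), among 23.2% and 22.1% of all tested genes. Of these 12, Ccnd1, Ccnd2, Cdkn1a, Mcm4 and E2f1 held with any library or R number left out. Under both cytokines 6 were higher (the D cyclins, Ccne1, Cdt1 and Cdkn1b) and 14 lower, among 23% and 23.8%, of which the D cyclins, Mcm3, Mcm4, E2f1 and Bub1b held likewise. Under IL-4, 0 were called in either direction by limma or by edgeR on the recovered reads, among 9.1% and 10.7%, with 0 at an unadjusted p under 0.05. Within R2 all 35 genes outside the D cyclins and inhibitors were lower at 4 h (median -0.36), against 16 within R1 and 7 within R3, with the share of all tested genes not counted. Mcm4 went from 24.2, 49.5 and 20.8 to 12.6, 20.1 and 12.8 rescaled CPM between 2 h and 4 h of both cytokines, without overlap (-0.94 ± 0.16, adjusted p = 0.00012). Ccnd1 went from 13.2, 47.1 and 11.5 to 43.9, 140 and 42.7 under IFN-γ (1.67 ± 0.14, adjusted p = 1.3e-07). Each of these held with any library left out, while the 20 calls under both cytokines became 8 without the 4 h library R3, 11 without either of the 2 h libraries R1 and R2, 12 without the 4 h library R2 and 12 without R1. The 12 under IFN-γ became 7 without the 4 h libraries R1 or R3, 6 without R1 and 5 without R3 in every group.

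Other genes of the same pathways are given by count, from lists of pathway members. Of all tested genes, 32.5% were higher and 32.4% lower in both fits under both cytokines at 4 h, and 31.5% and 29.5% under IFN-γ at 4 h. Of 35 other replication genes, 5 were higher and 21 lower in both fits under both cytokines at 4 h, and 5 and 17 under IFN-γ at 4 h. The largest changes under IFN-γ were in Pola2, a subunit of polymerase alpha (1.41 ± 0.08), and in Chaf1b, a histone chaperone subunit (-1.11 ± 0.17). Of 54 other mitotic genes tested, 33 were lower and 1 higher under both at 4 h, and 15 and 1 under IFN-γ. Incenp, the scaffold of the passenger complex, had -1.91 ± 0.21, Cdc25b, a phosphatase that activates CDK1, -1.86 ± 0.28, and Melk, a mitotic kinase, was the one higher (1.88 ± 0.35).

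Of 24 other G1 regulators, 9 were higher and 8 lower under both at 4 h in both fits, near the shares of all tested genes (32.5% and 32.4%). Those called included Myc (2.93 ± 0.13), the pocket protein gene Rbl1 (1.77 ± 0.27) and E2f2 (-1.83 ± 0.16). Under IL-4 at 4 h Myc had 3.08 ± 0.13 and E2f5 1.94 ± 0.15, and under IFN-γ at 4 h Rbl1 had 2.27 ± 0.27 and Skp2, which targets p27 for destruction, -1.35 ± 0.13. Cdkn1a is a known p53 target, and 12 others were counted. Under both cytokines at 2 h 8 of them were lower, among 19.7% of all tested genes, and under IL-4 at 4 h 1 was higher and 7 lower, among 22.7% and 22.4%. Under IFN-γ at 4 h 4 were higher and 5 lower, among 31.5% and 29.5%, and under both at 4 h 2 and 7, among 32.5% and 32.4%. Sesn1 had -2.12 ± 0.11 under both at 4 h, Pmaip1 -1.78 ± 0.19 and Ccng1 0.46 ± 0.10, and Mdm2 had 1.05 ± 0.13 under IFN-γ at 4 h. Of 7 antiproliferative factors, 4 were higher and 2 lower under both at 4 h, among the same 32.5% and 32.4%, with Gadd45b at 1.52 ± 0.21 and Ccng2 at -1.81 ± 0.09.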

How the data were processed

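Poly(A) RNA was measured in 21 libraries. The tools named, per the submitters' processing notes, are TopHat2 2.1.0, HTSeq and edgeR, with the builds mm10 and GRCm38, and their roles and settings are not given in the sources used here. The authors deposited these values as CPM, 24421 genes by 21 libraries. With the smallest positive value of each library taken as 1 read, 100% of values came out as whole reads (within 0.01 read). These recovered read counts served the edgeR alternative. The deposited CPM were divided by median-ratio factors, and the test took the 11380 genes that reached 1 CPM in 3 or more libraries.

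limma 3.58.1 (in R 4.3.3) was fitted to log2(rescaled CPM + 1) of all 21 libraries, with a mean per group and the R number as a block, leaving 12 residual degrees of freedom, with a trended prior and Benjamini-Hochberg adjustment within each of 15 contrasts. Calls are adjusted p-values under 0.05. The block stands in the model because changes were taken within R numbers. Over 63 pairs of libraries with the same number, deviations from the group means correlated at 0.539 to 0.951, and over 126 pairs with different numbers at -0.859 to 0.369. Taking the reads of untreated R2 out of untreated R3 was chosen after seeing the data. The other alternatives were edgeR 4.0.16 (quasi-likelihood), TMM factors, no rescaling, other filters, a pseudocount of 0.25, no block and leaving out each library or R number. The scripts were tested on simulated data.

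The 40 genes and all lists were chosen with earlier results of these data known, so that they are not independent evidence. All 40 are named. Of each other pathway list, the genes named are among the 2 called genes with the largest change in each direction in a contrast with untreated cells, at a mean of at least 1 rescaled CPM. Marker lists covered macrophages, granulocyte precursors, neutrophils, erythroid, stem and progenitor, T, B, stromal, megakaryocyte and dendritic cells. Promoters were read from a RefSeq table, and 8 genes had none in it.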

Additional observations from a re-analysis of the deposited data

Results flagged for a closer look

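The changes between 2 h and 4 h differed from 0 for 12 genes under IFN-γ and 20 under both cytokines by limma's test of the difference itself (adjusted p under 0.05, 3 libraries per group). The spread in that test was estimated from all 21 libraries. Under IFN-γ the log2 difference of 4 h from 2 h was -0.65 for Mcm2, -0.68 for Mcm4, -0.84 for Mcm7, -0.41 for Prim1, -0.52 for E2f1, -0.57 for Cdk1 and -0.39 for Bub1b. It was 0.64 for Pcna, 1.67 for Ccnd1, 2.66 for Ccnd2, 0.42 for Ccnd3 and 1.96 for Cdkn1a.

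Under both cytokines the helicase subunits had -0.61 (Mcm2), -0.62 (Mcm3), -0.94 (Mcm4), -0.60 (Mcm5) and -0.77 (Mcm7), and Gins2 had -0.36, Rrm1 -0.62 and E2f1 -0.43. The mitotic genes had -0.59 (Cdk1), -0.51 (Aurka), -0.66 (Bub1), -0.78 (Bub1b), -0.57 (Kif20a) and -0.66 (Cenpe). The log2 difference was 0.37 for Cdt1, 0.51 for Ccne1, 1.31 for Ccnd1, 2.41 for Ccnd2, 0.41 for Ccnd3 and 0.32 for Cdkn1b. Whether these differences depend on the cytokine was not tested.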

How the results depend on the processing

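Without the replicate block, the numbers of members called at 2 h and 4 h against untreated cells were 1 and 1 under IL-4 (6 and 13 with it), 2 and 4 under IFN-γ (6 and 25) and 3 and 4 under both (13 and 30). For IFN-γ against IL-4 they were 0 and 2 (4 and 10), for both against IL-4 0 and 2 (4 and 18), for both against IFN-γ at 2 h 1 (2), and for 4 h against 2 h 2 under IFN-γ (12) and 1 under both (20). Deposited CPM, where the median log2 change of all genes against untreated cells lay between 0.10 and 0.43, gave 3 and 6 under IL-4, 14 under IFN-γ at 4 h, 4 under both at 2 h, 20 for IFN-γ against IL-4 at 4 h and 1 for both against IFN-γ at 2 h. With the reads of untreated R2 taken out of untreated R3, 3 were called under IL-4 at 2 h, 3 for both against IFN-γ at 4 h and 19 for IFN-γ at 4 h against 2 h, and by edgeR on those reads 6 for both against IFN-γ at 4 h, 1 for IL-4 at 4 h against 2 h and 21 for IFN-γ at 4 h against 2 h. Without a filter 2 were called for IFN-γ against IL-4 at 2 h and 1 for both against IFN-γ at 2 h, and a pseudocount of 0.25 gave 1 for both against IFN-γ at 4 h. With 1 library or R number left out, the counts ran from 2 to 11 and 3 to 20 under IL-4 at 2 h and 4 h, 4 to 17 and 11 to 30 under IFN-γ, and 5 to 21 and 18 to 34 under both. They ran from 1 to 7 and 7 to 17 for IFN-γ against IL-4, 1 to 7 and 10 to 19 for both against IL-4, 0 to 4 and 0 to 4 for both against IFN-γ, and for 4 h against 2 h from 0 to 1 under IL-4, 5 to 14 under IFN-γ and 8 to 18 under both. Where 1 library was left out, its group's mean rests on the remaining pair and the spread is that of all groups. In deposited CPM the log2 change turned sign under IL-4 at 2 h for Ccnd3 (0.13) and Cdkn1b (0.054), under IL-4 at 4 h for Prim1 (0.021), E2f1 (0.16), Ccnd1 (0.11), Ccnd3 (0.21) and Cdkn1b (0.0015), and for both against IL-4 at 4 h for Ccnd3 (-0.0057). Cdkn1a for both against IFN-γ at 4 h became -0.43 without R2 and -0.43 without the IFN-γ library R2, in a range up to 0.29 without R3. Of 600 gene results, 460 kept their direction and side of the threshold without the block, 507 in deposited CPM, 547 with the subtraction, 576 in edgeR, 590 with TMM factors, 568 without a filter and 592 with the pseudocount of 0.25. The causes were not tested.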
